A study of Mus musculus with 6 samples.

Results

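The translation initiation and elongation factors were taken as all genes whose platform symbol starts with Eif or Eef followed by a digit, from probe sets that carry a single symbol. On the array these were 57 genes of 18193 named, with 152 probe sets of 45037. The study measured RNA of C2C12 cells, an established line of mouse muscle precursor cells, on Affymetrix mouse arrays with 1 array per sample. There were 3 untreated samples in basal medium and 3 samples in medium with 50 mM sodium pyruvate, all cultured for 72 h. Both media were DMEM with serum, antibiotics and glutamine. For the pyruvate medium the protocol names a pyruvate-free DMEM as its base, and for the basal medium it names DMEM alone, so whether basal medium held any pyruvate is not given. No control medium with matched sodium is described. C2C12 is a clonal line, and replicates are not described as separate cultures. The title concerns mitochondrial biogenesis induced by pyruvate independently of PGC-1alpha, and translation factors are not mentioned in the design.

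Protein synthesis starts when eIF2, loaded with the initiator tRNA and GTP, joins the small ribosomal subunit together with eIF1, eIF1A, eIF3 and eIF5. The cap-binding factor eIF4E, the scaffold eIF4G and the helicase eIF4A bring this complex to the mRNA, and the 4E-BP proteins hold eIF4E back when they are not phosphorylated. Kinases that phosphorylate eIF2 alpha lower general initiation and favour a few mRNAs such as that of Atf4. In elongation, eEF1A delivers aminoacyl-tRNA and eEF2 moves the ribosome along, and the kinase eEF2K inactivates eEF2. Muscle exchanges the general isoform eEF1A1 for eEF1A2 as it matures.

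Values are MAS5 signals on a linear scale, as the authors scaled them. Changes are differences of log2(signal + 16), pyruvate minus untreated, from limma, and "higher" or "lower" means an adjusted p under 0.05 over all 22519 probe sets tested. A gene stands for its brightest probe set. Median signals of the 6 arrays were 30.3 to 33.0, and pairs of arrays correlated at 0.990 to 0.993 within a group and 0.974 to 0.977 between groups over probe sets, which are not independent replicates. Of the muscle markers, all 6 myoblast markers lay above the signal filter, with summed signals of 8051 to 8342 in untreated and 7248 to 7489 in pyruvate samples. They moved in both directions: Myf5 (-0.65), Cdh15 (-0.39) and Itga7 (-0.21) were lower and Myod1 (0.26) and Ncam1 (0.17) higher. Des (-0.08) was not called. The 9 myotube markers summed to 5840 to 6356 in untreated samples and to 688 to 879 with pyruvate. Of these, 8 fell and Ckm (-0.23, limma adjusted p = 0.17) did not pass. Fewer cells of a type and less RNA per cell cannot be told apart in these bulk samples, and the part of the myotube markers in the factor values below was not tested. Of 3 fibroblast markers 2, Dcn and Pdgfra, lay above the filter, and the summed signals were 313 to 317 untreated and 278 to 318 with pyruvate. Endothelial and adipocyte markers stayed below the filter in both groups, and of the neuron markers only Tubb3 was above it. Macrophage markers summed to at most 167. Csf1r (0.25) and Cd68 (0.17) lay above the filter without a call, while Ptprc and Adgre1 lay below it.

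Promoter sequence is shown first for 5 factors on which the results turn: the elongation factor with the largest rise, eEF2 beside its kinase, and the 2 factors with the clearest falls. Each line gives the 120 bases before a start site in RefSeq, build GRCm38.p6, read 5′ to 3′ on the gene's strand. Capitals mark an E-box (CACGTG, bound by MYC family factors and USF) or the core of a cAMP response element (CRE core, TGACGT, or ACGTCA on the other strand) or an ETS site (CCGGAAG, or CTTCCGG on the other strand).
Eef1a1, chr9:78481725-78481844, minus strand: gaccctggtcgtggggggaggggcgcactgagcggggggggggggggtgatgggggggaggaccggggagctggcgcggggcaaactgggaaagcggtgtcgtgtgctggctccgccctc
Eef2, chr10:81176511-81176630, plus strand: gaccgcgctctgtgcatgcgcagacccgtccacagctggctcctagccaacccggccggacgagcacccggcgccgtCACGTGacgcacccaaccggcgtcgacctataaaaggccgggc
Eef2k, chr7:120842711-120842830, plus strand, 1 of 3 listed starts: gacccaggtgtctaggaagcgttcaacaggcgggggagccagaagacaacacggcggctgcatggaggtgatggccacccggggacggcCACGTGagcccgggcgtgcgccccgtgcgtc
Eif4e2, chr1:87213819-87213938, plus strand, 1 of 3 listed starts: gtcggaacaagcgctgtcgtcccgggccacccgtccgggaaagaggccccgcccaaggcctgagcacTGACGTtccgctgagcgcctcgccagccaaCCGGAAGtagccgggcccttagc
Eif4ebp2, chr10:61452670-61452789, minus strand: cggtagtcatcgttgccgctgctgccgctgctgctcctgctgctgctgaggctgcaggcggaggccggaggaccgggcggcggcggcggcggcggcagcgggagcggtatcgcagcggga

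The E-boxes of Eef2 and Eef2k begin at positions -43 and -31 from the listed start. No other listed start of Eef2k had an E-box in the 250 bases before it. Among the listed starts of Eif4e2, all had the CRE core there, but only the one shown had the ETS site. Eef2k was lower on both scales below. Eef2 was higher on the deposited one and with cyclic loess scaling (0.22), but not called after quantile normalization. In the 250 bases before any listed start, 11 of the 46 factors matched to the promoter table held an E-box (23.9%), against 10.2% of 8671 matched genes among all tested on the arrays and 6.86% of all 27025 genes in the table. The CRE core stood in 9 factors (19.6%, against 12% of the tested genes and 7.29% of the table) and the ETS site in 11 (23.9%, against 16.5% and 7.83%). By calls on the deposited scale, an E-box was found in 4 of 9 matched factors called higher, 1 of 5 called lower and 6 of 29 not called. The 4 higher ones were Eef2, Eif4a1, Eif4h and Eif5a. None of them was higher after quantile normalization, and Eif5a was lower there, while Eef2 and Eif4a1 stayed higher with cyclic loess scaling. The ETS site was in 4 of 9, 2 of 5 and 5 of 29 of these, and the CRE core in 3 of 9, 2 of 5 and 3 of 29. Eif4ebp2 holds a CRE core and an ETS site further upstream than the stretch shown. A match is a description of the letters and says nothing on binding.

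Pyruvate cells had lower signals for a small set of cap-binding, subunit-joining and elongation regulators, while most of the abundant initiation and elongation factors read higher on the deposited scale. Of 57 factors, 54 passed the signal filter. Of these 13 were higher and 7 lower, where 20.7% and 14.5% of all 10685 genes tested were called in these directions. The median change of the factors was 0.05 and that of all genes 0.03. Both shares lay near the background. For 29 of 54 factors every pyruvate array lay outside the untreated range, 20 above and 9 below, against 48.6% of all genes. The 3 factors below the filter were Eef2kmt, Eif2s3y and the single-symbol probe set of Eif4a3, whose mean signals were at most 7.63 in either group.

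The calls followed brightness. Among other genes of a mean log2 signal of 12 or above, 93.0% were higher with a median change of 0.41, and between 11 and 12, 55.0% were higher with a median of 0.17. Below that, the medians of other genes in bins of 1 log2 unit were 0.01 to 0.05. The factors crowd into the bright bins: 5 lay at 12 or above, all of them higher with a median of 0.32, and 13 lay between 11 and 12, with 7 higher and a median of 0.13. Of the 36 factors below 11, 1 was higher, Eif6, and all 7 lower ones were there. Set against the median of its own bin, 22 factors lay above and 32 below, and the median difference was -0.04. Spiked-in control transcripts, which do not come from the cells, also read higher with pyruvate: their mean log2 signal over 18 probe sets was 9.13, 9.21 and 9.17 on the untreated arrays and 9.53, 10.03 and 9.68 on the pyruvate arrays (0.58, exact two-sided permutation p = 0.1, the smallest possible). Single spiked-in probe sets rose by 0.40 to 0.80, while other genes with a mean log2 signal between 9 and 10 had a median change of 0.01. The spiked-in rise was thus larger than the change of genes near its mean level. Its part in the factor calls was not tested.

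**Figure D1:**
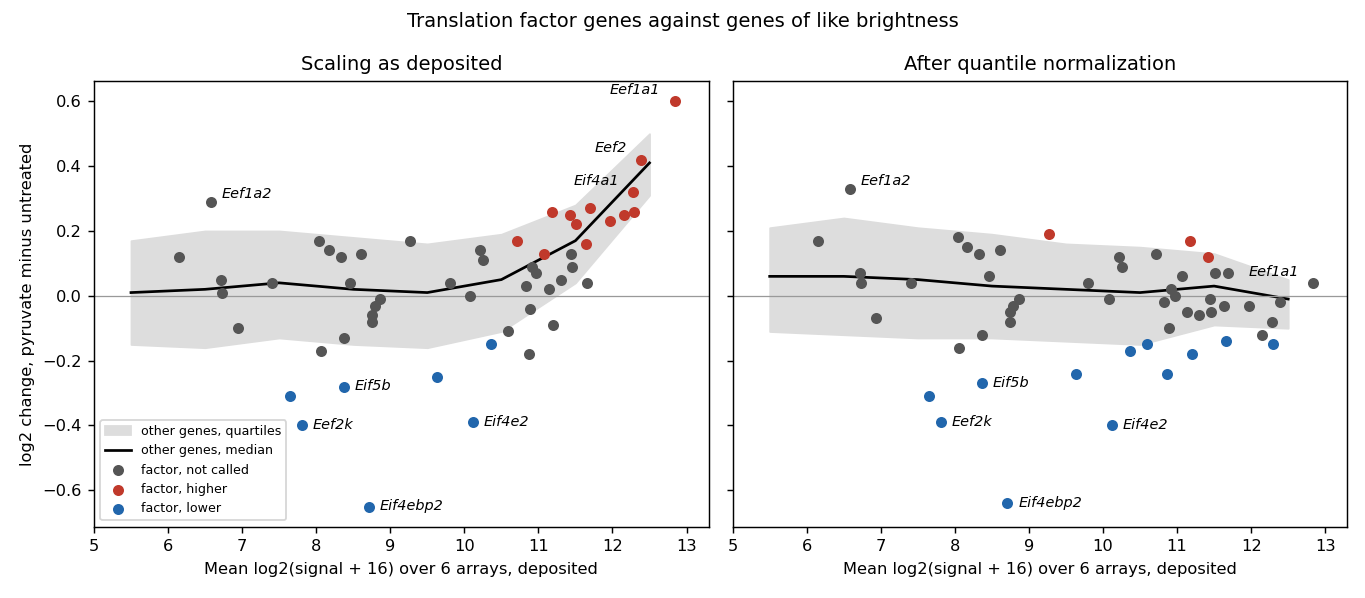
Log2 change of the 54 tested factors (points) against mean log2 signal, with the median (line) and quartiles (band) of other genes in brightness bins, as deposited (left) and after quantile normalization (right). On the left the bright factors follow the rising line up to Eef1a1 at 0.60, while Eif4ebp2, Eif4e2, Eef2k and Eif5b lie below the band in both panels.

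Quantile normalization gives every array the same distribution of signals and takes this trend out. After it, 3 factors were higher and 12 lower (median -0.02), where 20.0% of 10687 genes were higher and 14.6% lower. All 7 factors lower on the deposited scale were lower there too. Of the 13 higher ones 2 stayed higher (Eif3d and Eif3l), 10 were not called and 1 (Eif5a) turned lower. Eif1ax, Eif5, Eif3a and Eif2s2 became lower and Eif2b1 higher. Directions for many of the bright factors thus depend on the scaling, and called ones are given below on both scales. With cyclic loess scaling instead, Eef1a1 (0.37), Eef2 (0.22), Eif4a1 (0.14), Eif3d (0.14) and Eef1b2 (0.12) stayed higher (limma adjusted p up to 0.047). The others of the 13 were not higher there.

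Of the 3 eIF4E binding proteins 1 was lower, and of the 9 tested factors of the cap complex 2 were lower and 3 higher. Among all genes tested 14.5% were lower and 20.7% higher. Eif4ebp2 encodes 4E-BP2, which blocks the binding of eIF4E to eIF4G. Its signals were 492, 516 and 522 in untreated and 302, 329 and 324 in pyruvate samples. The pyruvate arrays lay well below every untreated one. The change was -0.65 with a standard error of 0.06 (95% interval -0.78 to -0.53, limma adjusted p = 1.3e-05), and it was -0.64 after quantile normalization. This was the lowest value of the 54 factors. A further probe set of the gene fell by 0.36 (adjusted p = 0.0029), and the other 2 tested were at -0.29 and -0.09 without passing.

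The relative Eif4ebp1, encoding 4E-BP1, had signals of 1890, 1976 and 1853 untreated and 1735, 1794 and 2039 with pyruvate, and the groups overlapped. Its change was -0.04 (95% interval -0.18 to 0.10, limma adjusted p = 0.66). On each array the log2 difference of Eif4ebp2 minus Eif4ebp1 was -1.91, -1.90 and -1.80 untreated and -2.46, -2.39 and -2.60 with pyruvate. The difference between these paralogs thus moved by -0.61 without overlap, with an exact two-sided permutation p = 0.1, the smallest that 3 against 3 arrays allow (0.125 after adjustment over 5 pairs). It moved by -0.54 after quantile normalization. Eif4enif1, the eIF4E transporter of the nucleus and P bodies, was at -0.06 (adjusted p = 0.50).

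Eif4e2 encodes 4EHP, a cap-binding protein that does not bind eIF4G and represses the mRNAs it holds. It went from 1258, 1276 and 1229 to 952, 922 and 988, again without overlap. The change was -0.39 with a standard error of 0.05 (limma adjusted p = 1.2e-04), and -0.40 after quantile normalization. A second bright probe set went from 983, 986 and 1070 to 608, 723 and 685 (-0.58), while 3 dimmer ones were at -0.14, 0.05 and 0.05 and did not pass. Eif4e3, another member of the eIF4E family, went from 225, 196 and 205 to 156, 168 and 170 (-0.31, adjusted p = 0.011). Without untreated replicate 1 its adjusted p was 0.06. After quantile normalization Eif4e3 was at -0.31 (adjusted p = 0.013). Its other tested probe set, at -0.25 on the deposited scale, did not pass. Eif4e itself, the main cap-binding factor, was at 1938, 2005 and 1881 untreated and at 1899, 2235 and 2010 with pyruvate. Its arrays overlapped, with a change of 0.07 (95% interval -0.06 to 0.21, adjusted p = 0.39). The per-array difference of Eif4e2 minus Eif4e moved by -0.46 (exact permutation p = 0.1, adjusted 0.125) and did not overlap between groups.

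The remaining tested genes of the cap complex and its cofactors were higher or not called on the deposited scale. Eif4g1, an eIF4G gene, had no probe set of a single symbol and is not analysed here. Eif4a1, the main RNA helicase of initiation, went from 4294, 4724 and 4327 to 5270, 5853 and 5571. All 3 pyruvate arrays were above the untreated ones, with a change of 0.32 (limma adjusted p = 0.0015), but genes of like brightness had a median of 0.41 and the change was -0.08 after quantile normalization (adjusted p = 0.11). Eif4g2, a relative of eIF4G that lacks the eIF4E site, went from 4073, 4107 and 4257 to 4999, 5091 and 4679 (0.25, and -0.12 after quantile normalization). Its other 3 tested probe sets did not pass. Eif4h, a cofactor of the helicase, was higher by 0.16 (adjusted p = 0.030) and at -0.03 after quantile normalization. None of its other tested probe sets passed, with changes of -0.22 to 0.07. Its call was kept only without pyruvate replicate 1 (adjusted p up to 0.12 without the others). Eif4a2 (0.09), Eif4b (0.02) and Eif4g3 (-0.13) were not called, and Eif4b was at -0.05 after quantile normalization. The difference of Eif4a2 minus Eif4a1 moved by -0.23 on the deposited scale and by 0.10 after quantile normalization, so its direction turns with the scaling.

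**Figure D2:**
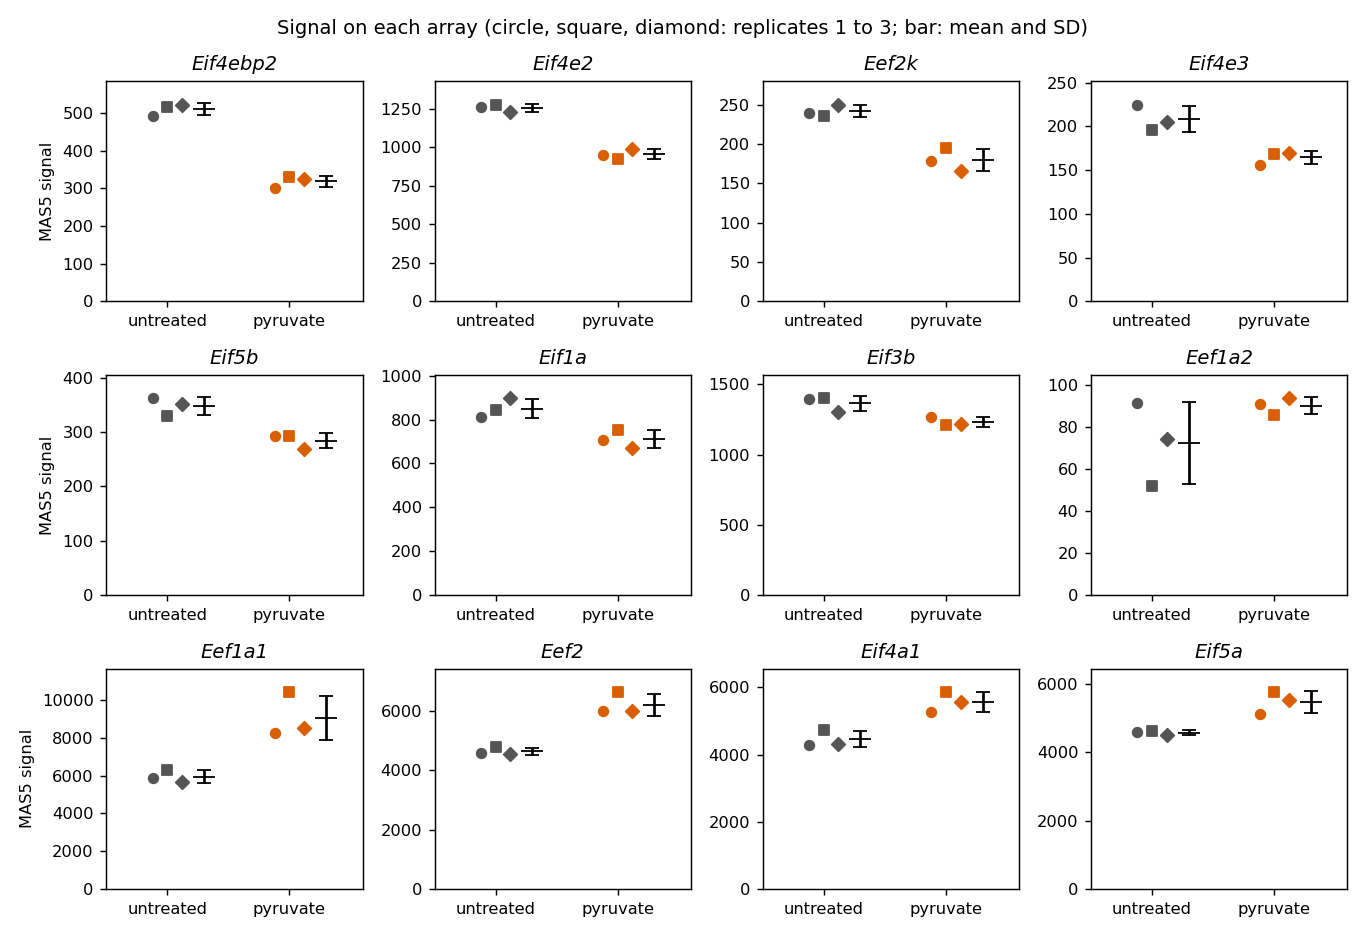
MAS5 signal of 12 factors on each of the 3 untreated and 3 pyruvate arrays, on linear axes from 0, with the mean and SD beside the points. The first 7 panels are the factors called lower, in which no pyruvate array reaches an untreated one; Eef1a2 overlaps, and Eef1a1, Eef2, Eif4a1 and Eif5a are higher on the deposited scale.

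Of the 6 tested factors of start codon scanning and subunit joining, 2 were lower and none higher, beside 14.5% and 20.7% of all genes. Their median was -0.14, against 0.03 for all genes. Eif5b, the GTPase that joins the large ribosomal subunit, went from 362, 330 and 351 to 292, 292 and 269. The arrays did not overlap and the change was -0.28 with a standard error of 0.06 (limma adjusted p = 0.0067). Its other 2 probe sets were at 0.04 and 0.17 and did not pass. Eif1a, an eIF1A gene, went from 811, 842 and 896 to 707, 752 and 672 (-0.25, adjusted p = 0.0065), and its other probe set was at -0.06. Both calls stood after quantile normalization (Eif5b at -0.27, Eif1a at -0.24), where Eif5 (-0.24) and Eif1ax (-0.15) were also lower. Eif5 stimulates GTP hydrolysis by eIF2. On the deposited scale its brightest probe set was at -0.18 (adjusted p = 0.051), and 2 of its other 4 were lower, both at -0.26. Eif1ad (-0.03) and Eif1b (-0.01) did not pass. Eif1 had no probe set of a single symbol and is not analysed here.

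The eIF2 complex and its exchange factor eIF2B, which reloads eIF2 with GTP, had no call among 7 tested genes on the deposited scale (limma). Their brightest probe sets ranged from -0.08 for Eif2b4 to 0.17 for Eif2b1 (adjusted p = 0.054). Eif2s2, eIF2 beta, was at 3175, 3256 and 3106 untreated and at 3202, 3393 and 3196 with pyruvate. Its brightest probe set thus overlapped between groups (0.04, 95% interval -0.07 to 0.14). Yet 3 of its other 5 tested probe sets were lower: the first went from 1026, 970 and 1071 to 729, 697 and 686 (-0.53, adjusted p = 3.2e-05), and the others fell by 0.35 and 0.29. Eif2s3x, eIF2 gamma, was at 2508, 2494 and 2381 untreated and 2458, 2654 and 2541 with pyruvate (0.05, adjusted p = 0.47, and -0.06 after quantile normalization). Eif2b2, Eif2b3 and Eif2b5 were at 0.11, 0.13 and 0.04. Eif2s1, eIF2 alpha, had no probe set of a single symbol and is not analysed here.

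The 3 eIF2 alpha kinases measured gave no gene call. Eif2ak1, the heme-regulated kinase, was at 251, 273 and 255 untreated and 264, 303 and 296 with pyruvate, and the groups overlapped (0.14, limma adjusted p = 0.17). A dimmer probe set of it was higher, from 192, 191 and 208 to 240, 240 and 239 (0.26, adjusted p = 0.012). Eif2ak4, which senses uncharged tRNA, was at 85.6, 89.1 and 94.9 and then 90.5, 82.4 and 99.6 (0.01, 95% interval -0.22 to 0.24). Eif2ak2, activated by double-stranded RNA, was at 0.05 with an interval of -0.25 to 0.34.

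Of the factors that can deliver initiator tRNA without eIF2, Eif2a went from 259, 251 and 292 to 248, 225 and 232 on its brightest probe set, without overlap but not called (-0.17, limma adjusted p = 0.10). A second probe set fell from 188, 181 and 182 to 122, 99.7 and 107 (-0.67, adjusted p = 2.0e-04). Eif2d had 235, 227 and 233 untreated and 249, 280 and 260 with pyruvate (0.17, adjusted p = 0.075), again without overlap. Its other 3 tested probe sets lay between 0.13 and 0.20 and did not pass.

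The eIF3 complex, the large scaffold on the small ribosomal subunit, had 5 of 11 tested subunits higher and 1 lower, beside 20.7% and 14.5% of all genes and 55.0% higher among other genes between 11 and 12, where most subunits lie. Relative to genes of like brightness the median was -0.04. Their median change was 0.13 on the deposited scale and -0.01 after quantile normalization. Eif3d, a subunit that can bind the cap, went from 2123, 2134 and 2052 to 2409, 2543 and 2607. All pyruvate arrays were higher, with a change of 0.26 (limma adjusted p = 0.0020), and it stayed higher after quantile normalization (0.17, adjusted p = 0.0055). Eif3l went from 2414, 2492 and 2560 to 2862, 3211 and 2852 (0.25, and 0.12 after quantile normalization, adjusted p = 0.044). Eif3e went from 3654, 3771 and 3649 to 4247, 4478 and 4306 (0.23, and -0.03 after quantile normalization).

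Eif3h went from 2641, 2671 and 2746 to 2932, 3461 and 3042 (0.22, limma adjusted p = 0.017, and 0.07 after quantile normalization). The fifth, Eif3c, was higher by 0.13 (adjusted p = 0.043) and at 0.06 without a call after quantile normalization (adjusted p = 0.29), and 2 of its 3 other probe sets were higher as well. Eif3b, whose product contacts several other subunits, was lower, from 1394, 1399 and 1304 to 1269, 1208 and 1216 (-0.15, adjusted p = 0.040). It was at -0.17 after quantile normalization (adjusted p = 0.015). With each array left out in turn, Eif3b kept its call in 2 of 6 fits (lost without pyruvate 2 or 3 or untreated 1 or 2, adjusted p up to 0.15). Eif3c kept it in 1, without pyruvate 2, with adjusted p up to 0.14. Eif3h lost it without untreated 1 or 2 (up to 0.067). Eif3a, Eif3f, Eif3i, Eif3k and Eif3m were not called on the deposited scale, with changes of -0.09 to 0.14. After quantile normalization Eif3a was lower (-0.18, adjusted p = 0.021), and Eif3f and Eif3i were at -0.05 and -0.01.

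Probe sets of the same factor often disagreed. Over the 129 tested probe sets of the factors 17 were higher and 20 lower, where 16.3% and 15.9% of all probe sets were, with a median of 0.00 against -0.01. Of the 75 that were not the brightest of their gene, 4 were higher and 13 lower. For 2 of 36 factors with several tested probe sets, Eif3e and Eif3l, probe sets were called both ways. In Eif3e the second went from 1832, 1824 and 1832 to 1294, 1469 and 1326 (-0.42, limma adjusted p = 1.6e-04), opposite to its brightest. In Eif3l a dim probe set fell from 80.4, 81.7 and 79.4 to 53.0, 52.4 and 57.2 (-0.46). Eif3i had a probe set that fell by 0.31 beside the brightest at 0.13. Many of these are of the a, s or x class, whose probes match several transcripts or are not unique. As a measure of RNA integrity, the 3′ over 5′ signal ratio for actin was 1.14 to 1.16 and for Gapdh 0.788 to 0.813 over the 6 arrays.

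**Figure D3:**
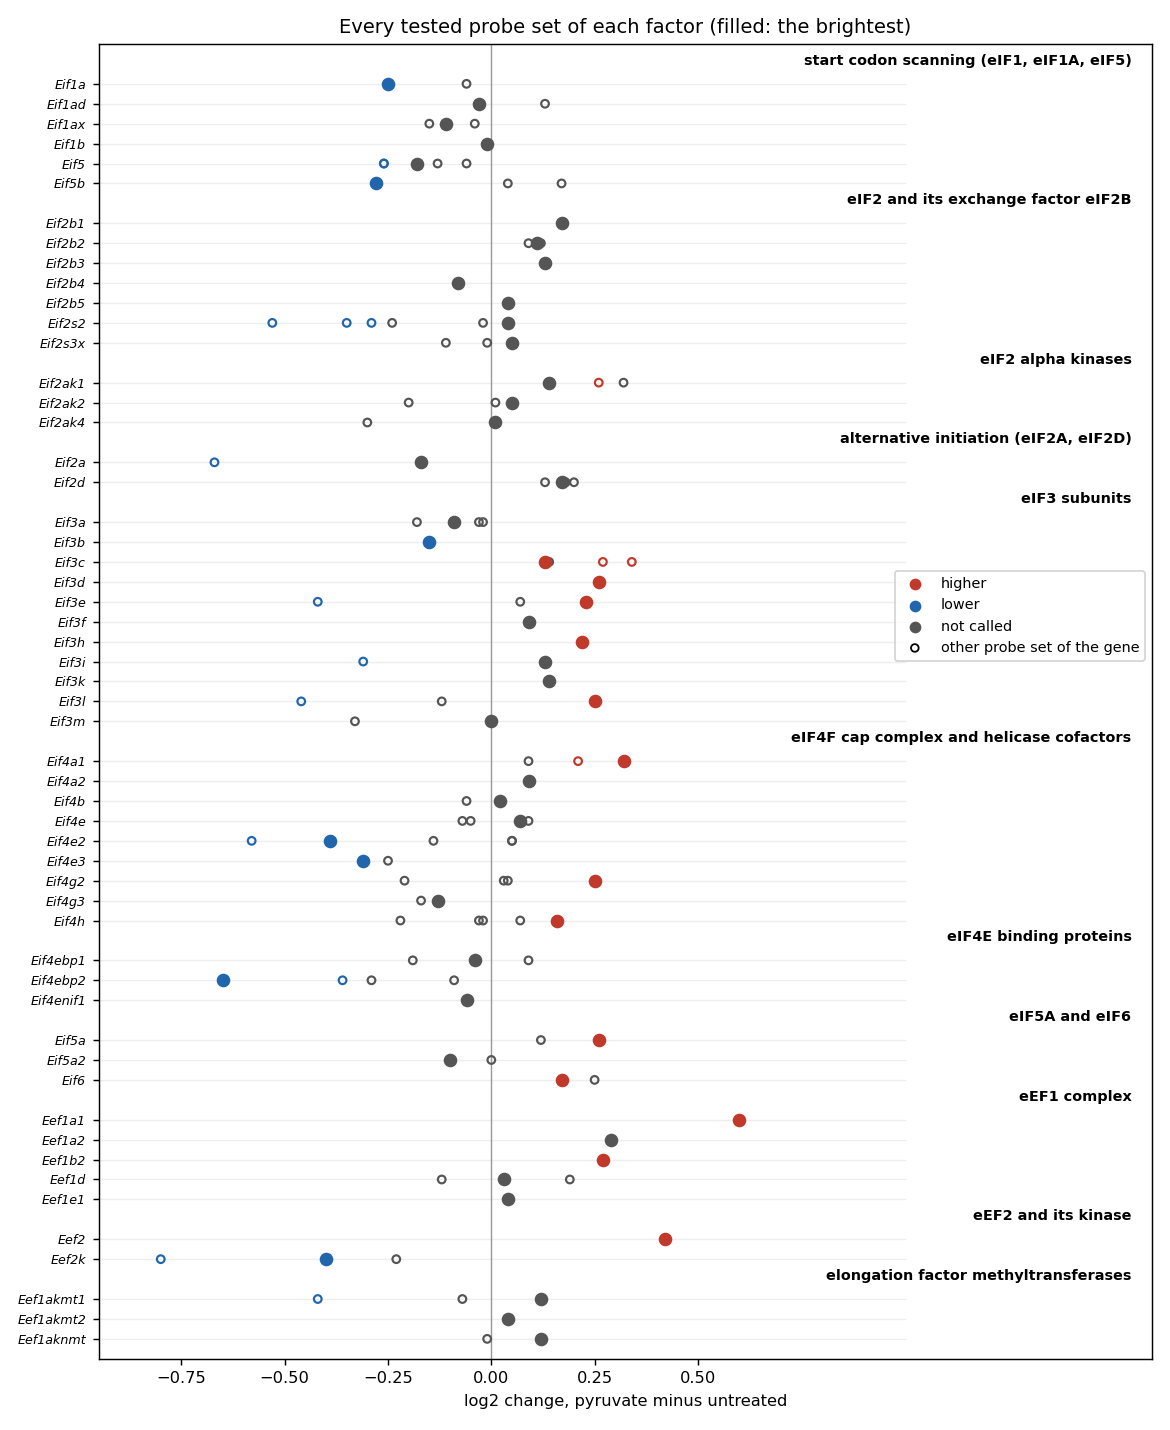
Log2 change of all 129 tested probe sets by factor and role, the brightest of each gene filled and the others open, red where higher, blue where lower and grey where not called. Open blue points beside filled grey or red ones mark Eif5, Eif2s2, Eif2a, Eif3e, Eif3i, Eif3l and Eef1akmt1, and both called probe sets of Eif4ebp2, Eif4e2 and Eef2k lie to the left.

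Among the elongation factors, Eef1a1 had the largest rise of the 54. Its signals were 5889, 6292 and 5642 untreated and 8253, 10407 and 8500 with pyruvate. Pyruvate replicate 2 was the highest, as it was for the spiked-in controls. The change was 0.60 with a standard error of 0.08 (limma adjusted p = 2.5e-04), 0.19 above the median of its brightness bin, and 0.04 after quantile normalization (adjusted p = 0.33). That bin holds all genes at 12 or above, and Eef1a1, at 12.84, was the brightest factor, so the bin matches its brightness only roughly. Eef1a1 has many near-identical processed copies in the genome, and the array may not separate them. Eef1a2, the muscle and neuron isoform, was dim and overlapped, with 91.0, 51.9 and 74.0 untreated and 90.9, 85.7 and 93.4 with pyruvate. It was at 0.29 (95% interval -0.04 to 0.62, adjusted p = 0.17), while the myotube markers fell as given above. The difference of Eef1a2 minus Eef1a1 moved by -0.31 on the deposited scale and 0.28 after quantile normalization, with an exact permutation p = 0.3.

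Eef1b2, the exchange factor subunit that reloads eEF1A, went from 2894, 3026 and 3089 to 3495, 3826 and 3530 (0.27, limma adjusted p = 0.0027). After quantile normalization it was at 0.07 and not called. Eef1d (0.03, and -0.02 after quantile normalization) and Eef1e1 (0.04), an exchange subunit and a component of the tRNA synthetase complex, did not pass. On the deposited scale 2 of 5 genes in this group were higher and none lower, beside 20.7% and 14.5% of all genes tested. None was called after quantile normalization.

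Eef2 and the kinase that inactivates its product differed in direction on the deposited scale, while after quantile normalization only the kinase was called. Eef2 went from 4567, 4783 and 4560 to 5990, 6631 and 5987, without overlap. The change was 0.42 (limma adjusted p = 2.0e-04), 0.01 from the median of its brightness bin, and -0.02 after quantile normalization. Eef2k went from 240, 235 and 250 to 178, 195 and 166, and here the pyruvate arrays were all lower. The change was -0.40 with a standard error of 0.08 (adjusted p = 0.0021), and -0.39 after quantile normalization. A dimmer probe set of Eef2k fell from 72.3, 60.5 and 68.9 to 26.6, 31.6 and 37.8 (-0.80, adjusted p = 0.0010), and the remaining one was at -0.23 (adjusted p = 0.14).

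Eif5a, whose hypusine-bearing product relieves stalled ribosomes, went from 4596, 4624 and 4488 to 5128, 5752 and 5528. It was higher by 0.26 on the deposited scale (limma adjusted p = 0.0038), below the 0.41 of genes of like brightness, and called lower, at -0.15, after quantile normalization (adjusted p = 0.0040). The direction for this gene is therefore set by the scaling. Its paralog Eif5a2 was at -0.10 (adjusted p = 0.53). Eif6, which keeps the ribosomal subunits apart, went from 1596, 1537 and 1540 to 1820, 1666 and 1784 (0.17, adjusted p = 0.022, and 0.13 after quantile normalization, adjusted p = 0.065). The call was lost without pyruvate 1 or 3 or untreated 2 or 3 (up to 0.077).

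The methyltransferases of eEF1A gave no gene call. Eef1akmt1 was at 282, 284 and 311 untreated and at 358, 292 and 308 with pyruvate, which overlapped (0.12, limma adjusted p = 0.29), although another of its probe sets fell by 0.42 (adjusted p = 0.018). Eef1akmt2 was at 143, 149 and 165 and at 141, 167 and 162 (0.04), and Eef1aknmt at 0.12.

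Genes around the factors were read from lists of the pathway. Of 19 genes of mTORC1 and its inputs, 7 were higher and none lower (median 0.14). All genes tested had 20.7% higher and 14.5% lower. After quantile normalization 7 were higher and 1 lower, Rheb, the GTPase that activates mTORC1 (-0.13, adjusted p = 0.033). Sesn3 and Sesn1, sestrins that restrain mTORC1, rose by 0.52 and 0.43. Ddit4l, an inhibitor of mTORC1, rose from 29.8 ± 7.06 to 56.1 ± 15.7 (SD, n = 3 arrays each; 0.64, limma adjusted p = 0.020), and its untreated mean lay below the filter signal of 30.3, so it was tested only because of its level with pyruvate. Mtor (0.04) and Rptor (0.07), the kinase and its partner, did not pass. Of 7 effectors on translation, 3 were lower and 1 higher (median -0.12). Poldip3, an S6K1 partner at spliced mRNA, fell by 0.44. Mknk2, which phosphorylates eIF4E, fell from 2124 ± 32.1 to 1596 ± 34.6 (-0.41, adjusted p = 5.4e-05), while its relative Mknk1 rose by 0.29.

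In the list of the integrated stress response, which holds both regulators of eIF2 alpha phosphorylation and genes downstream of it, 6 of 11 genes were higher and 1 lower, beside 20.7% and 14.5% of all genes. The higher ones include Impact, an inhibitor of Gcn2 activation (0.33). The subunits of the eIF2 alpha phosphatase went both ways: Ppp1r15b was the lower gene of the list (-0.17), and Ppp1r15a was higher (0.37, limma adjusted p = 0.018). The 4 genes not called were Trib3 (0.02), Asns (0.10), Nck1 (-0.04) and Gcn1 (0.12). The median change of the 11 was 0.29, and the counts were the same after quantile normalization. Atf4, the factor translated when eIF2 is phosphorylated, rose from 1936 ± 65.9 to 2676 ± 96.5 (SD, n = 3; 0.46, limma adjusted p = 4.5e-05), Atf5 by 0.48 and Ddit3 by 0.39. Signals of RNA give no measure of eIF2 phosphorylation. Of 5 poly(A)-binding genes 2 were higher: Pabpc1 by 0.41 (-0.05 after quantile normalization) and its inhibitor Paip2 by 0.32 on both scales. In termination and recycling 2 of 11 were higher and 1 lower, with Abcf2 at 0.42, Gspt1, the release factor eRF3a, at -0.18 and Hbs1l at 0.13.

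None of 7 genes that modify eIF5A or eEF2 (hypusine and diphthamide synthesis) was called by limma, with changes of -0.15 to 0.17. Of 8 other elongation and mitochondrial translation factors, 2 were higher: Eefsec, the selenocysteine elongation factor, by 0.51 and Tsfm, a mitochondrial one, by 0.40. Cytosolic ribosomal proteins, the bright partners of the factors, rose in 35 of 44 genes and fell in 4, at a median change of 0.39, beside 20.7% and 14.5% of all genes. Relative to genes of like brightness the median was 0.04. Those genes include the ribosomal proteins themselves, so this comparison is partly of the list with itself. After quantile normalization 6 rose and 12 fell, and the median was 0.00. Their largest rises were Rps15 at 0.74, Rpl41 at 0.74 and Rps2 at 0.65, and on the quantile scale these were 0.41, 0.22 and 0.16.

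**Figure D4:**
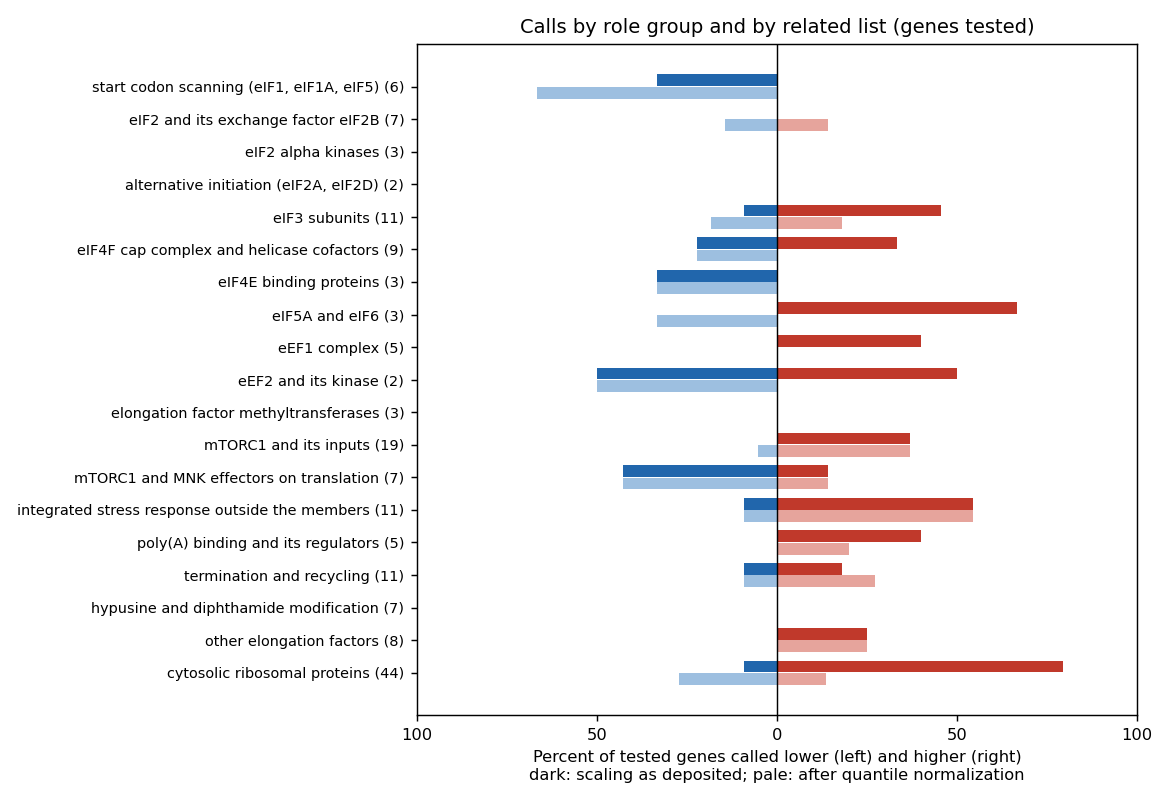
Percent of tested genes called higher (right) and lower (left) with pyruvate in each role group of the factors and in each related list, as deposited (dark) and after quantile normalization (pale), with the number tested in brackets. Ribosomal proteins, eIF3, the eEF1 complex and eEF2 with its kinase lose most or all of their red bars after quantile normalization, while the stress response and mTORC1 input lists keep theirs.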

How the data were processed

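Per the submitters' processing notes, the authors computed MAS5 signals, and each deposited value is the linear intensity of a probe set on an array. Trimmed means (2% of probe sets off each end) came to 150.0 on every array, so values are relative to a common level and say nothing of total RNA in a cell. Which MAS5 settings gave this is not stated in the labels. Symbols came from the platform annotation: 34945 of 45037 non-control probe sets carried 1 symbol, 932 several and 9160 none, and 64 controls were left out of the tests. All 152 probe sets of the factors matched a RefSeq gene through the Entrez identifier. A further 8 probe sets list a factor among several symbols and were not used, and 1 gene of the symbol pattern is not reported here. Signals were tested as log2(signal + 16), which understates changes of dim genes, for probe sets whose mean log2 value was at or above the median of 5.53 (a signal of about 30.3), with limma 3.58.1 in R 4.3.3 (lmFit, eBayes with trend, two-sided, no block) and Benjamini-Hochberg adjustment across the 22519 probe sets that passed. Adjusted p-values come from this fit unless another setting is named. Since no label says that replicates were separate cultures, the p-values reflect the spread between these arrays alone, which may be technical. Brightness bins were 1 log2 unit wide, with genes at 12 or above together. The paralog test fixed 10 pairs, of which 5 had both genes above the filter. On simulated data for this comparison with 22519 probe sets, the limma step called 4% of the 50 given a log2 change of 0.25. Its recovery was 28% at a change of 0.5, 90% at 1 and 98% at 2, with 50 probe sets for each size and 5 false among 115 calls. In the real fit 3678 probe sets were called higher and 3572 lower, far more than were changed in the simulation. The adjusted threshold was therefore stricter in the simulation, and these shares do not give the recovery on the real arrays. Named genes were up to 4 called members per role, by size, or the brightest 2 where none was called, with Eef1a1, Eef1a2, Eef2, Eif4e, Eif4ebp1, Eif2s1, Eif5a and Eif6 always, and up to 3 called genes per related list; other members are given by their change. Mtor, Rptor, Rheb, Impact, Ppp1r15a, Ppp1r15b, Trib3, Asns, Nck1 and Gcn1 were named after their values were seen. Members and lists were chosen with earlier results of these data known. Figures were drawn with matplotlib 3.10.9.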

Additional observations from a re-analysis of the deposited data

How the results depend on the processing

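The alternatives were pseudocounts of 1 and 64, no filter and a stricter filter, quantile, median-centred and cyclic loess scaling, limma untrended, robust or with weighted arrays, a replicate block, averaging each gene's tested probe sets, a required change of at least 0.3, narrower bins of 0.5, and fits that each omit an array. The 13 factors higher and 7 lower became 3 and 12 with quantile normalization, 5 and 11 with cyclic loess, and 3 and 4 with the minimum change of 0.3. Without each array in turn the higher count was 10 to 13 and the lower 5 to 8. The median change of 0.05 became -0.02 with quantile normalization, 0.00 with cyclic loess, 0.08 with median centring, -0.01 with the mean over probe sets, and 0.05 to 0.08 without each array in turn. Among factors called as deposited or under the alternative, direction reversed under quantile normalization for Eef2 (-0.02), Eif2s2 (-0.14), Eif3e (-0.03), Eif4a1 (-0.08), Eif4g2 (-0.12), Eif4h (-0.03) and Eif5a (-0.15), under cyclic loess for Eif2s2 (-0.11), and with the mean over probe sets for Eif2s2 (-0.23), Eif3e (-0.04), Eif3l (-0.11) and Eif4h (-0.01); the cause was not tested. Eif4ebp2, Eif4e2, Eef2k, Eif5b, Eif1a and Eif3d kept their call in the 3 other scalings and without each array in turn. These settings keep the brightest probe set. The call of Eif5b rests on 1 of 3 tested probe sets (others at 0.04 and 0.17), and that of Eif1a on 1 of 2 (other at -0.06). Same-numbered arrays did not deviate together (correlations of deviations -0.009, 0.014 and 0.021), and with the replicate block 12 were higher and 8 lower (Eif3c was no longer called, adjusted p = 0.053, and Eif5 was, adjusted p = 0.048). The 3 arrays a group limit the precision. Changes of 0.25 were seldom recovered in simulated data, where far fewer probe sets changed than were called on the real arrays. The adjusted threshold was stricter there.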
